A study of Mus musculus with 9 samples.

Results

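Otx2, Fgf5, T, Eomes, Mixl1, Gata6, Sox17, Foxa2, Cdx2 and Pax6 are 10 mouse genes that mark the primed state of pluripotency or the first lineages of the embryo, and they were followed here in RNA-seq libraries of spermatogonial stem cells (SSC) and of induced pluripotent stem cells (iPSC). Their loci were found by position on the GRCm38 mouse genome and not by the printed names, and the locus with the highest mean over the libraries was taken where a gene had several. A locus with at least 50% of its length in the gene was found for 9 of the 10 genes, out of 12750 genes with a named locus, and only a locus running past its 3′ end was found for Pax6. The 9 libraries comprised 3 of SSC enriched by magnetic sorting for the surface receptor Gfra1 from testes of mouse pups (passage 0), 3 of iPSC derived from SSC (SSCiPSC) and 3 of iPSC derived from fetal fibroblasts (fiPSC), both labelled passage 10 to 11, whereas the methods give later passages for the sorted iPSC. All 3 groups came from one mouse strain that combines the allele Gt(ROSA)26Sortm1(rtTA*M2)Jae, a doxycycline-dependent activator expressed from the Rosa26 locus, with the allele Col1a1tm3(tetO-Pou5f1,-Sox2,-Klf4,-Myc)Jae, a cassette of the 4 reprogramming factors that this activator switches on. The iPSC were lines picked from colonies, grown with LIF and sorted for the surface antigen SSEA1 before their RNA was taken, and doxycycline was withdrawn stepwise according to the methods, whereas the labels list it in the medium. Whether a replicate was a separate line or animal was not given for each library, so p-values measure only the spread between these samples.

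Mouse pluripotency passes through a naive state, kept in culture by LIF, and a primed state found in the epiblast around implantation, with a formative phase between them. Otx2 is a homeodomain factor that drives the exit from the naive state, and Fgf5 is a growth factor gene that marks the primed epiblast. T, Eomes and Mixl1 then switch on in the primitive streak, Gata6, Sox17 and Foxa2 in endoderm, Cdx2 in trophectoderm and Pax6 in neuroectoderm, and low levels of these lineage genes are a usual feature of undifferentiated iPSC.

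The regions in front of the primed pair, Otx2 and Fgf5, are shown because both genes were listed higher in every fiPSC than in every SSCiPSC library. Each is the 250 bases before a RefSeq transcript start (GRCm38.p6), written 5′ to 3′ along the gene with every CpG in capitals. The Otx2 start is the one nearest to the 5′ end of the measured locus, which lies 284 bp further upstream. The Otx2 region shown therefore lies within the measured locus and not in front of it. The measured Fgf5 locus begins 115 bp downstream of its start.
Otx2, chr14:48667645-48667894, minus strand: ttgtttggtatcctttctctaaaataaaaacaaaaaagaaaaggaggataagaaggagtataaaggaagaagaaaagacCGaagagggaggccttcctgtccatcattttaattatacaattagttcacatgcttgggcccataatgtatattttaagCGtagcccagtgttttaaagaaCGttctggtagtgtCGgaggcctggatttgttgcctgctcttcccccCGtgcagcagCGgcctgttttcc
Fgf5, chr5:98253934-98254183, plus strand: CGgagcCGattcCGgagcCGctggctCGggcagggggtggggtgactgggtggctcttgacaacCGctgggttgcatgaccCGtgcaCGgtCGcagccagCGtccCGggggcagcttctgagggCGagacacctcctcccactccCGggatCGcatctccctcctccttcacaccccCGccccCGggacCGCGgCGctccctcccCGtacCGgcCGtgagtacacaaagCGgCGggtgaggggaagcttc
The Otx2 region held 6 CpG and 42% G or C, and the Fgf5 region held 24 CpG and 70.8%, beside medians of 6 CpG and 52.4% over 32851 mouse promoters of this length. The letters TATAAA, searched on both strands, were present in the Otx2 region and absent from the Fgf5 region, and 12.4% of all promoters held them.

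Values are FPKM, fragments per kilobase of transcript and per 1000000 mapped fragments, which allow levels to be compared between genes. Fragment totals recovered from the steps between low FPKM values, in units of 1000000, were 1.77, 4.62 and 1.38 for SSC replicates 1, 2 and 3, against 13.3 to 17.6 for the 6 iPSC libraries. On a transcript of 1 kb, 1 fragment is therefore worth 0.566, 0.216 and 0.723 FPKM in the SSC libraries and no more than 0.0754 in an iPSC library, and a value of 0 in SSC is the weaker statement. Groups were compared with limma on log2(FPKM + 1), keeping loci that reached 1 FPKM in 3 or more of the 6 libraries, and called where the p adjusted by Benjamini and Hochberg was below 0.05. Differences on this scale are smaller than true fold changes for genes near or under 1 FPKM.

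**Figure D1:**
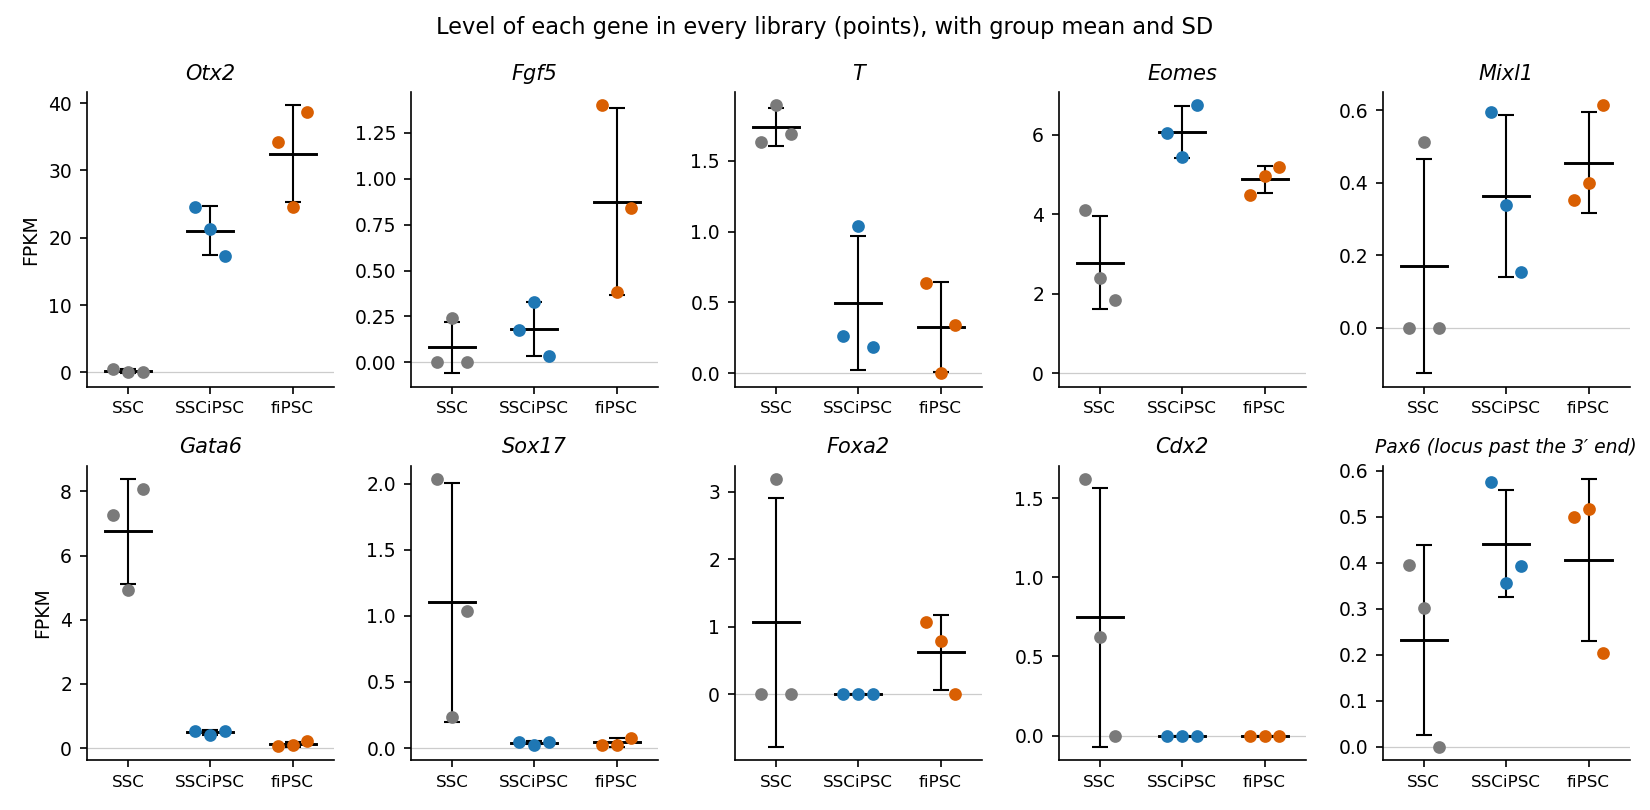
FPKM of each of the 10 genes (vertical axis, linear, a scale of its own in each panel) in the 3 SSC, 3 SSCiPSC and 3 fiPSC libraries. Points are libraries, long bars group means and whiskers SD. Otx2 lies between 17.3 and 38.6 FPKM in iPSC and at or under 0.558 in SSC, whereas Gata6 lies between 4.92 and 8.08 in SSC and under 0.6 in every iPSC library.

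In both kinds of iPSC, Otx2 was the most abundant of the 10 genes and Eomes came next, and no other member reached 1 FPKM in every library of an iPSC group. Otx2 and Fgf5 were listed higher in each fiPSC library than in each SSCiPSC library, and Eomes and Gata6 lower, so that 4 of the 10 genes had groups that did not overlap. Of all loci, 16.3% had no overlap, 9.82% with fiPSC higher and 6.46% with fiPSC lower. Otx2 and Eomes were the members that passed the filter for the comparison of fiPSC with SSCiPSC, and 0 of them were called, at a background of 0.0678% of the loci tested (23 of 33948). At an unadjusted p below 0.05 there was 1 of the tested members, Otx2, and 11.7% of all loci.

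Otx2 (chromosome 14, 48657558 to 48667928, minus strand) was 24.5, 21.3 and 17.3 FPKM in SSCiPSC replicates 1, 2 and 3. In fiPSC replicates 1, 2 and 3 it was 34.2, 24.6 and 38.6 FPKM. The groups were separated by the narrowest margin, since fiPSC replicate 2 lay just above SSCiPSC replicate 1, and the other fiPSC libraries stood clear of all SSCiPSC. The means were 32.5 ± 7.19 FPKM in fiPSC and 21.04 ± 3.61 in SSCiPSC (SD, n = 3 each), a difference of 0.59 on the log2(FPKM + 1) scale (SE 0.20), and limma's adjusted p was 0.341 with an unadjusted p of 0.0206. The exact permutation test (two-sided) gave p = 0.1, which is the smallest that 3 against 3 libraries allow. Across 12 other settings with a test, limma's adjusted p for Otx2 ranged from 0.259 to 0.737 and the difference kept its sign.

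In the SSC libraries Otx2 was 0.558, 0 and 0 FPKM. It was higher in SSCiPSC by 4.24 (SE 0.29, limma's adjusted p = 0.000147) and in fiPSC by 4.83 (SE 0.28, limma's adjusted p = 9.67e-05) on the log2(FPKM + 1) scale. Each of the 6 iPSC libraries was far above all SSC libraries, so that the order of the groups from low to high was SSC, SSCiPSC and fiPSC, with the last 2 not told apart by the test.

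Fgf5 (chromosome 5, 98254299 to 98276576, plus strand) was near the limit of these libraries. Whole fragments could be recovered for its locus, and they numbered 5, 8 and 1 in SSCiPSC replicates 1, 2 and 3, which are 0.178, 0.328 and 0.0373 FPKM. In fiPSC replicates 1, 2 and 3 there were 33, 12 and 23 fragments, or 1.4, 0.384 and 0.841 FPKM. All fiPSC values were above all SSCiPSC values, but the closest pair, fiPSC replicate 2 and SSCiPSC replicate 2, had overlapping exact Poisson intervals of 0.199 to 0.672 and 0.142 to 0.649 FPKM (95%, counting error only). The sums were 68 fragments in fiPSC and 14 in SSCiPSC, with means of 0.875 ± 0.509 and 0.181 ± 0.145 FPKM (SD, n = 3 each). Fgf5 did not pass the filter for the test, and the exact permutation test gave p = 0.1, again the smallest possible. Without the filter, limma gave an unadjusted p of 0.0197 and an adjusted p of 0.383 for a difference of 0.64. The SSC libraries held 0, 2 and 0 Fgf5 fragments, and with the value of 1 fragment at 0.319, 0.122 and 0.407 FPKM there, SSC could not be told from SSCiPSC at this depth.

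**Figure D2:**
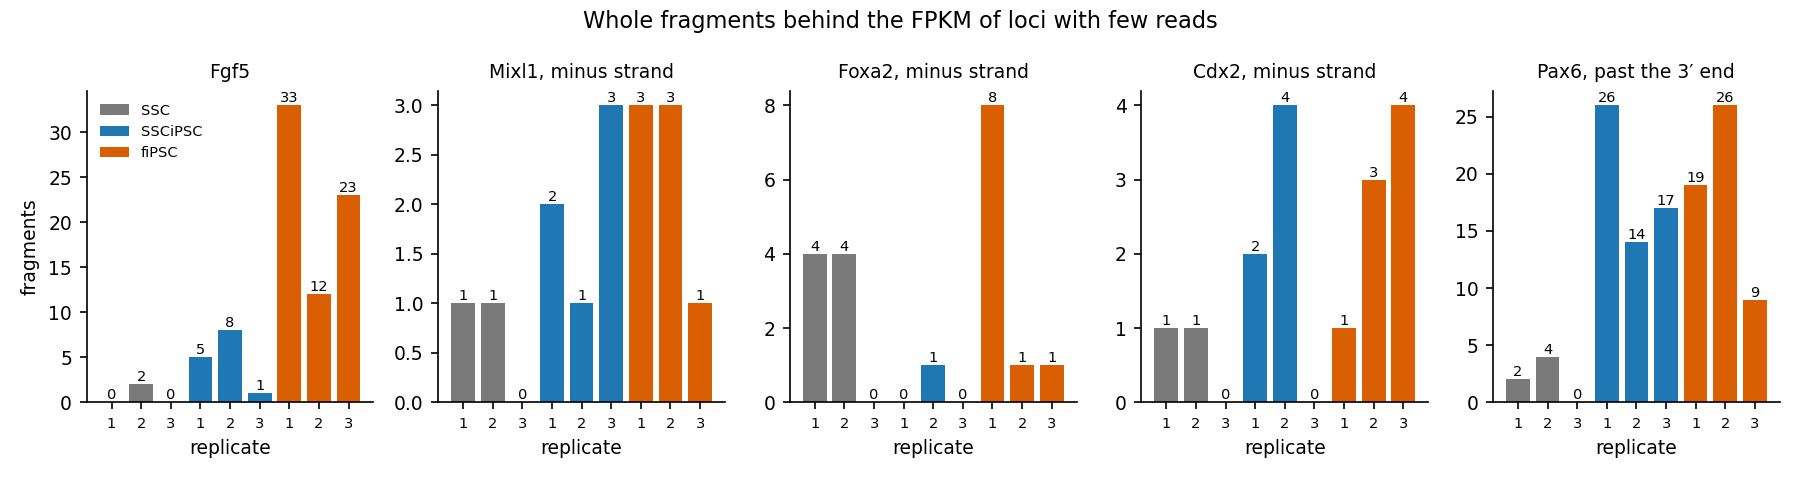
Whole fragments (vertical axis, linear from 0, a scale of its own in each panel) behind the FPKM of Fgf5, of the minus-strand loci of Mixl1, Foxa2 and Cdx2, and of the locus past the 3′ end of Pax6, in replicates 1 to 3 of SSC, SSCiPSC and fiPSC. Numbers above the bars are the fragments. Fgf5 has 12 to 33 fragments in fiPSC and 1 to 8 in SSCiPSC, and Mixl1, Foxa2 and Cdx2 have no more than 8 in any library.

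Among the primitive streak genes, Eomes, a T-box factor of mesoderm, endoderm and trophoblast, was the one measured well in iPSC. Eomes (chromosome 9, 118478928 to 118486168, plus strand) was 6.03, 5.43 and 6.73 FPKM in SSCiPSC replicates 1, 2 and 3 and 4.49, 4.95 and 5.18 FPKM in fiPSC replicates 1, 2 and 3. The fiPSC libraries all lay below the SSCiPSC libraries, by a small step. The means were 4.87 ± 0.349 FPKM in fiPSC and 6.07 ± 0.652 in SSCiPSC (SD, n = 3 each), a difference of -0.26 (SE 0.16) with an adjusted p of 0.558 by limma, and the exact permutation p was 0.1.

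The SSC libraries listed Eomes at 4.10, 2.40 and 1.85 FPKM, below all iPSC libraries. The step from SSC to SSCiPSC was 0.94 (SE 0.29, limma's adjusted p = 0.0349), and the step from SSC to fiPSC was 0.68 (SE 0.28, limma's adjusted p = 0.0846). The first call was lost without SSC replicate 2 or 3 (limma's adjusted p = 0.0866 and 0.0776) and without SSCiPSC replicate 1, 2 or 3 (0.101, 0.0822 and 0.125). Without SSC replicate 1, the highest of its group, the second step was 0.91 and passed (limma's adjusted p = 0.0210).

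T, or Brachyury, the founding T-box factor of the primitive streak that has also been described in cultured SSC, ran the other way. T (chromosome 17, 8432385 to 8442495, plus strand) was 1.63, 1.89 and 1.69 FPKM in SSC replicates 1, 2 and 3. It was 0.266, 1.04 and 0.185 FPKM in SSCiPSC and 0.634, 0 and 0.338 FPKM in fiPSC replicates 1, 2 and 3. The 2 iPSC groups overlapped, and all iPSC values lay below all SSC values.

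T fell by 0.92 from SSC to SSCiPSC (SE 0.26, limma's adjusted p = 0.0258) and fell by 1.08 from SSC to fiPSC (SE 0.22, limma's adjusted p = 0.00735) on the log2(FPKM + 1) scale. The first call was lost without SSC replicate 1, 2 or 3 (limma's adjusted p = 0.0593, 0.0670 and 0.0571) and without SSCiPSC replicate 1 or 3 (0.128 and 0.144). The second was lost without fiPSC replicate 2 or 3 (limma's adjusted p = 0.0614 and 0.0571). No fiPSC library reached 1 FPKM, so T passed the filter for fiPSC against SSC through its SSC values. Its tested difference there could go 1 way only. Between fiPSC and SSCiPSC T did not pass the filter, and the difference of -0.16 had an exact permutation p of 0.7.

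Mixl1, a homeobox factor of the streak that directs mesendoderm, was close to absent. The locus with the highest mean is a 581 bp locus without strand (chromosome 1, 180693234 to 180693814), which held 4, 2 and 1 fragments in SSCiPSC replicates 1, 2 and 3 and 2, 3 and 4 in fiPSC. The longer minus-strand locus of Mixl1 held 2, 1 and 3 fragments in SSCiPSC and 3, 3 and 1 in fiPSC. In SSC replicates 1, 2 and 3 the first locus held 0, 1 and 0 fragments and the second 1, 1 and 0. The groups overlapped at both loci, and no difference was detectable at this depth.

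Gata6, the zinc finger factor of primitive endoderm, had the highest level in SSC of the 10 genes, at 7.26, 4.92 and 8.08 FPKM in replicates 1, 2 and 3. In SSCiPSC replicates 1, 2 and 3 it was 0.523, 0.410 and 0.525 FPKM, and in fiPSC 0.0571, 0.0941 and 0.209 FPKM. All 3 groups were separate, with fiPSC lowest. Gata6 fell by 2.36 from SSC to SSCiPSC (SE 0.27, limma's adjusted p = 0.000669) and fell by 2.77 from SSC to fiPSC (SE 0.25, limma's adjusted p = 0.0003), and both calls held in 9 of 9 other settings with a test. With any SSC library left out, Gata6 did not pass the filter and had no test. Between fiPSC and SSCiPSC the means were 0.120 ± 0.0793 and 0.486 ± 0.0660 FPKM (SD, n = 3 each), under the filter of the test. The exact permutation p for that step was 0.1, and limma without the filter gave an unadjusted p of 0.00376 and an adjusted p of 0.277 for a difference of -0.41. A second Gata6 locus without strand, over the same interval, held 4, 5 and 4 fragments in SSCiPSC replicates 1, 2 and 3 and 1, 0 and 0 in fiPSC, and it was not independent of the first since the loci share their interval.

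Sox17, an endoderm factor that also serves in blood vessels, was listed (chromosome 1, 4490113 to 4493697, minus strand) at 2.04, 0.233 and 1.04 FPKM in SSC replicates 1, 2 and 3. In iPSC it did not exceed 0.0797 FPKM, with means of 0.0424 ± 0.0325 in fiPSC and 0.0398 ± 0.0118 in SSCiPSC (SD over 3 libraries). SSC did not overlap with either iPSC group, whereas the iPSC groups overlapped. Sox17 passed the filter in none of the comparisons, and limma without the filter gave adjusted p values of 0.0702 for SSCiPSC and 0.0688 for fiPSC against SSC.

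Foxa2, the forkhead factor of definitive endoderm, has 2 loci over one interval (chromosome 2, 148042868 to 148046566). The locus without strand has the higher mean and listed 0, 3.19 and 0 FPKM in SSC replicates 1, 2 and 3, 0 in all SSCiPSC, and 1.07, 0.791 and 0 in fiPSC replicates 1, 2 and 3, which match 1 fragment each in SSC replicate 2 and in fiPSC replicates 1 and 2 as the smallest whole numbers, with multiples of them not told apart. The minus-strand locus held 4, 4 and 0 fragments in SSC replicates 1, 2 and 3, 0, 1 and 0 in SSCiPSC, and 8, 1 and 1 in fiPSC. Of the 10 fiPSC fragments there, 8 came from replicate 1, and the groups overlapped.

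Cdx2, the homeodomain factor that specifies trophectoderm, was at a few fragments at most. The 507 bp locus with the highest mean (chromosome 5, 147306640 to 147307146) held 1, 1 and 0 fragments in SSC replicates 1, 2 and 3 and 0 in every iPSC library. The longer minus-strand locus held 2, 4 and 0 fragments in SSCiPSC replicates 1, 2 and 3, 1, 3 and 4 in fiPSC, and 1, 1 and 0 in SSC. The iPSC groups overlapped at both loci, and no difference was detectable at this depth.

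Pax6, the paired-box factor of neuroectoderm and eye, had no locus named for it. A locus without strand (chromosome 2, 105696298 to 105699320) had 35.3% of its length in the gene and ended 1956 bp past it. It held 26, 14 and 17 fragments in SSCiPSC replicates 1, 2 and 3 and 19, 26 and 9 in fiPSC, which overlapped, and 2, 4 and 0 in SSC. Since most of this locus lies outside the annotated gene, the reads were not assigned to Pax6.

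Set beside SSC, 2 members were called higher in SSCiPSC (Otx2, Eomes) and 2 lower (T, Gata6) of the 4 tested, where 50.3% of all 36544 loci tested were called, 26.2% higher and 24.1% lower. In fiPSC against SSC, 1 was called higher (Otx2) and 2 lower (T, Gata6) of 4 tested, at a background of 51.8%, 28% higher and 23.7% lower. The values of 5 of the 10 genes in the first comparison and 6 in the second fell into groups without overlap, as did 49.4% and 52.2% of all loci, so these shares are close to those of any locus. Otx2 passed the filter through its iPSC values and Gata6 through its SSC values, as did T in fiPSC against SSC. In these cases a tested difference could go 1 way only. Both comparisons use the same SSC libraries. The median difference over all tested loci was 0.11 in the first and 0.17 in the second, and median-ratio scaling moved them to 0.24 and 0.31, by less than the called differences of Otx2, Gata6, T and Eomes.

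**Figure D3:**
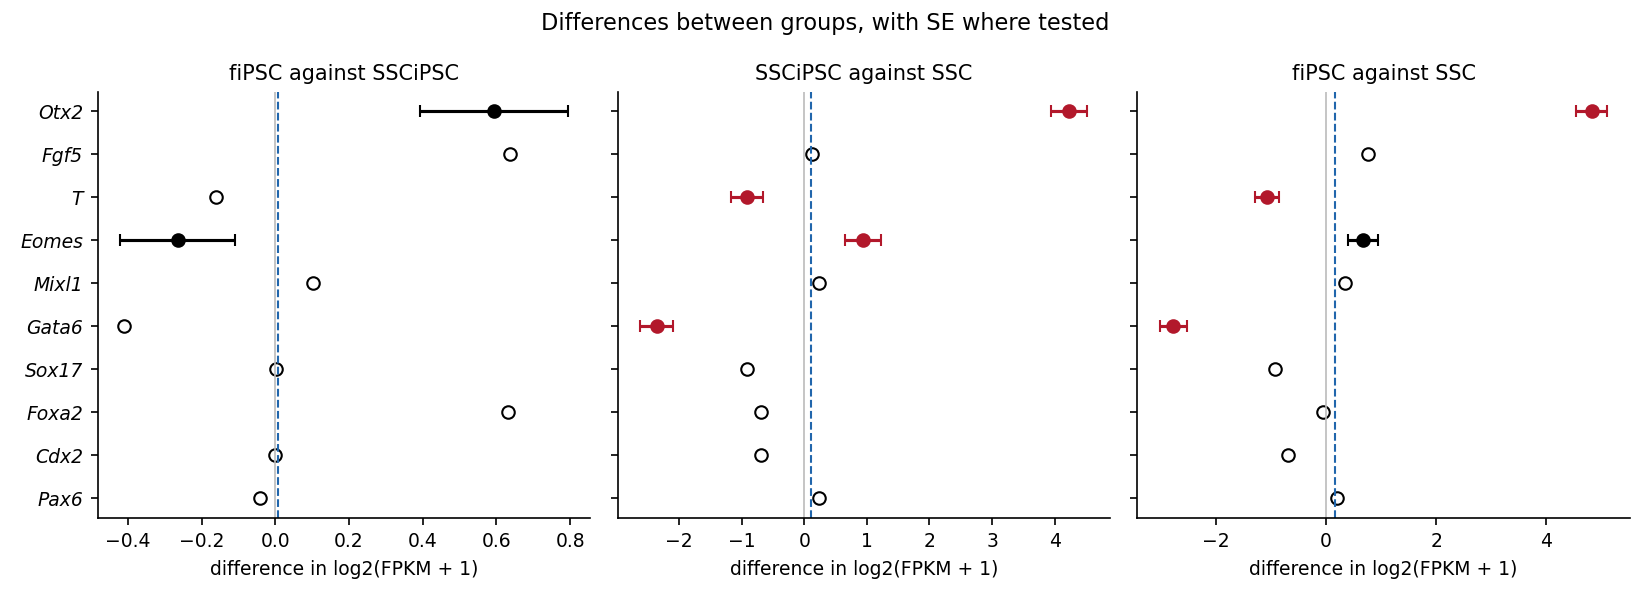
Difference of each of the 10 genes between groups (horizontal axis, log2(FPKM + 1), first group minus second, with a scale of its own in each panel) for fiPSC against SSCiPSC, SSCiPSC against SSC and fiPSC against SSC. Filled points with whiskers are tested genes with their SE, red where limma's adjusted p is below 0.05, open points genes under the filter, and the dashed line the median of all tested loci. Otx2 stands at 4.24 and 4.83 against SSC and at 0.59 between the iPSC groups.

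Lists of genes of the same states were set beside the members. Of 20 formative and primed genes, 17 had a locus and 16, Otx2 among them, passed the filter between fiPSC and SSCiPSC, and 0 were called. At an unadjusted p below 0.05, 4 were higher in fiPSC (Otx2, Sox3, Grhl2 and Sall2) and 1 lower (Fgf15) of the 16, where 11.7% of all loci tested passed, and the list's median difference was 0.29, beside 0.0084 over all tested loci. Grhl2, an epithelial transcription factor of the formative state, had means of 11.96 ± 4.54 FPKM in fiPSC and 5.66 ± 2.90 in SSCiPSC (SD, n = 3 each), which overlapped. Sox3 was listed at 0 in all SSCiPSC and at 1.37, 1.01 and 5.0 FPKM in fiPSC replicates 1, 2 and 3, on a locus of only 205 bp without strand. It passed the filter through its fiPSC values, so it could only be counted as higher in fiPSC. Fgf15, a growth factor gene, was 3.56 ± 0.666 FPKM in fiPSC and 6.78 ± 0.574 in SSCiPSC (SD, n = 3 each). The most abundant gene of the list, the de novo DNA methyltransferase Dnmt3b, was 30.9, 84.9 and 33.2 FPKM in SSCiPSC and 116, 49.8 and 158 FPKM in fiPSC replicates 1, 2 and 3, with the groups overlapping. Tcf15, Etv4 and Sox4, the next in abundance, had groups that overlapped as well.

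Of 15 naive pluripotency genes 13 were tested and 0 called between fiPSC and SSCiPSC. At an unadjusted p below 0.05, 6 were lower in fiPSC (Nanog, Esrrb, Nr0b1, Tfcp2l1, Klf5 and Prdm14) and 1 higher (Dppa3) of the 13, beside 11.7% of all loci, and the median difference was -0.25. Nanog, the homeodomain factor of the naive network, was 483, 456 and 426 FPKM in SSCiPSC and 279, 270 and 295 FPKM in fiPSC replicates 1, 2 and 3. The Nanog groups were well apart, with a difference of -0.69 (SE 0.10) and an adjusted p of 0.121 by limma. Tfcp2l1 differed by -1.21 (SE 0.21, limma's adjusted p = 0.177) and Nr0b1 by -0.98 (SE 0.18, limma's adjusted p = 0.190). Dppa3, which protects maternal methylation marks after fertilization, differed by 1.59 (SE 0.37, limma's adjusted p = 0.225). The groups of Tdgf1 and L1td1, both highly expressed, overlapped, and Otx2, at 21.04 and 32.5 FPKM on average, was far below Nanog in both kinds of iPSC.

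**Figure D4:**
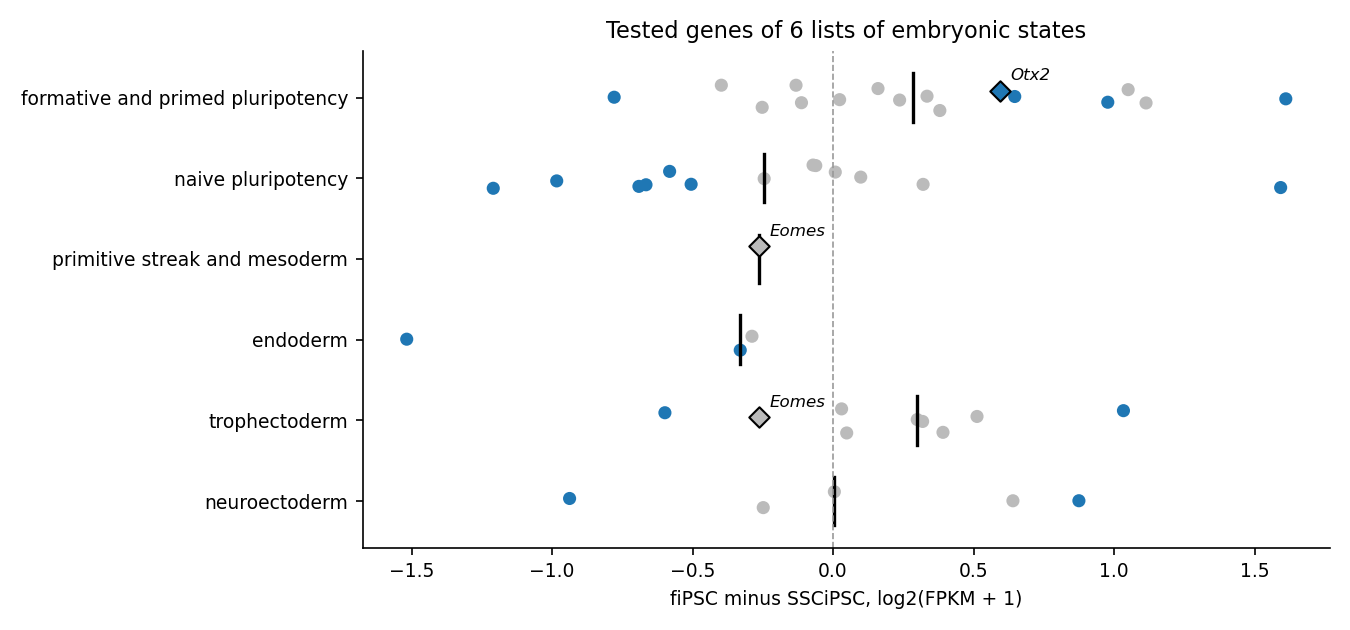
Difference between fiPSC and SSCiPSC (horizontal axis, log2(FPKM + 1), positive where higher in fiPSC) of the tested genes in 6 lists of embryonic states (rows; vertical spread within a row is for legibility). Each point is a gene, blue where limma's unadjusted p is below 0.05 and grey otherwise, diamonds are Otx2 and Eomes, and black bars are list medians. The formative list has its median at 0.29 and the naive list at -0.25, and 0 genes pass after adjustment.

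Of the lineage genes with a locus, 13 of 19 of the primitive streak and mesoderm list and 13 of 19 of the endoderm list were under 1 FPKM in every iPSC library, as were 6 of 16 trophectoderm and 5 of 12 neuroectoderm genes. Of 20 primitive streak and mesoderm genes 19 had a locus, and Eomes was the single one that passed the filter between fiPSC and SSCiPSC. Its abundant members Foxf1, Kdr and Pdgfra were highest in SSC, with Foxf1, a mesoderm forkhead factor, at 22.1, 26.0 and 18.5 FPKM in SSC replicates 1, 2 and 3 and at no more than 0.162 FPKM in iPSC. Of 20 endoderm genes 3 were tested, 0 were called and 2 were lower in fiPSC at an unadjusted p below 0.05, beside 11.7% of all loci. They were Lama1, a laminin chain of basement membranes, at 2.13 ± 0.463 FPKM in fiPSC against 7.91 ± 0.516 in SSCiPSC (SD, n = 3 each, limma's adjusted p = 0.0622), and Sparc, a matrix protein gene, at 131 ± 5.21 against 165 ± 13.7 FPKM (limma's adjusted p = 0.323). Gata4, the partner of Gata6 in primitive endoderm, was 18.7, 18.1 and 20.2 FPKM in SSC replicates 1, 2 and 3 and no more than 0.351 FPKM in iPSC. Its iPSC groups overlapped, with means of 0.225 FPKM in fiPSC and 0.117 in SSCiPSC, unlike those of Gata6.

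Of 18 trophectoderm genes 9 were tested and 0 called between the iPSC groups, with a median difference of 0.30 over the 9 and of 0.039 over the 16 with a locus. Of the 9, 2 had an unadjusted p below 0.05, beside 11.7% of all loci. Krt18, a keratin of simple epithelia, was higher in fiPSC at an unadjusted p below 0.05 (11.9 ± 2.12 against 5.39 ± 1.75 FPKM, SD, n = 3 each, limma's adjusted p = 0.217), and Tead4, a factor upstream of Cdx2, lower (6.40 ± 0.345 against 10.4 ± 2.62 FPKM, limma's adjusted p = 0.32). Tfap2c and Plet1 overlapped. Of 20 neuroectoderm genes 12 had a locus, 5 were tested and 0 called, with a median difference of 0.0047 over the 5 and of -0.023 over the 12. Of the 5, 2 had an unadjusted p below 0.05. Sox11, a neural SoxC factor, was higher in fiPSC at an unadjusted p below 0.05 (5.25 ± 1.56 against 2.37 ± 0.625 FPKM, SD, n = 3 each, limma's adjusted p = 0.298) and Sox1, on a locus of 283 bp, lower (3.26 ± 1.39 against 7.46 ± 4.06 FPKM, limma's adjusted p = 0.398). Tubb3, Msi1 and Nes overlapped.

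Against SSC, where 26.2% of all loci tested were called higher and 24.1% lower in SSCiPSC, and 28% higher and 23.7% lower in fiPSC, 13 of 13 naive genes were called higher in both SSCiPSC and fiPSC, which are all those with a locus. Of 16 formative and primed genes, 10 were called higher and 3 lower in SSCiPSC, and 13 higher and 2 lower in fiPSC. Under 1 FPKM in every SSC library were 6 of the 13 naive genes and 6 of the 17 formative and primed genes with a locus. Those of them that were tested passed the filter through their iPSC values and could only be called higher. Sox3, at 0 in all SSCiPSC, could only be called lower there. These counts are therefore not read against the shares over all loci. Most endoderm and primitive streak genes that were tested against SSC had passed the filter through their SSC values, so their direction was largely set by the filter and no count of calls is read for these lists. Over the 19 endoderm genes with a locus, tested or not, the median difference was -1.002 in SSCiPSC and -1.05 in fiPSC. Lama1 was 7.91 FPKM on average in SSCiPSC and 5.43 in SSC, a difference of 0.47 that was not called (limma's adjusted p = 0.0785). Over the 19 primitive streak and mesoderm genes with a locus the medians were -0.72 and -0.49. Trophectoderm genes were divided, with 4 called higher and 3 lower of 10 in SSCiPSC and 5 higher and 2 lower of 11 in fiPSC, and so were neuroectoderm genes, with 2 higher and 4 lower of 8, and 2 higher and 3 lower of 7. Among the called genes, Tead4 and Sox1 passed the filter through their iPSC values, and Gata2, Plac1, Zic1 and Lhx2 through their SSC values. Their direction was therefore set by the filter. The counts are also small numbers beside the shares over all loci, and nothing particular to either list was read from them.

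Several of the genes that were high in SSC were low in iPSC, as were most markers of testis somatic cells and most germ line genes. In these bulk samples fewer cells of a type and less RNA per cell cannot be told apart. Against SSC, the germ line list had a median difference of -2.30 in SSCiPSC and -2.46 in fiPSC. In each, 10 of its genes were lower and 3 higher. The 13 germ line genes with a locus had summed levels of 795, 974 and 660 FPKM in replicates 1, 2 and 3 of SSC and stood between 275 and 461 FPKM in iPSC, and naive genes summed to between 35.2 and 38.1 FPKM in SSC and between 1575 and 1980.2 in iPSC, as their labels say. The 9 Sertoli genes, led by Clu, had summed levels of 1074, 1060.2 and 859 FPKM in replicates 1, 2 and 3 of SSC and did not exceed 8.64 FPKM in an iPSC library, where Cst12 was at 0 throughout. The 5 Leydig genes, led by a 157 bp locus of Star, summed to 910, 533 and 1014 FPKM in SSC and to no more than 33.5 FPKM in iPSC, with Nr5a1 at 0 in all iPSC. The 5 peritubular myoid genes, led by Acta2, summed to 104, 99.97 and 90.6 FPKM in SSC and to no more than 12.9 in iPSC. Of these, Des went the other way, at 3.15 FPKM on average in SSC, 5.83 in SSCiPSC and 6.10 in fiPSC. Cnn1 overlapped between SSC and each kind of iPSC.

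The 8 endothelial genes had summed levels of 149, 79.6 and 130 FPKM in replicates 1, 2 and 3 of SSC and between 85.4 and 128 FPKM in iPSC, which overlapped. Their most abundant gene, Pecam1, was higher in SSCiPSC than in SSC by 1.29 (limma's adjusted p = 0.0113). The defining gene Cdh5 was 22.2, 12.6 and 27.2 FPKM in SSC replicates 1, 2 and 3 and no more than 0.0458 FPKM in iPSC. The 7 macrophage genes, led by Cd68, had summed levels of 48.2, 17.6 and 144 FPKM in replicates 1, 2 and 3 of SSC and lay between 11.97 and 18.7 FPKM in iPSC. The sum of SSC replicate 2 fell within the iPSC range. The list was split, with 2 of its 6 tested genes higher and 4 lower than in SSC in each kind of iPSC. Cd68 averaged 8.94 FPKM in SSC, 10.8 in SSCiPSC and 11.0 in fiPSC, whereas C1qa averaged 23.8, 0.450 and 1.14. According to the methods, testis somatic cells were first left to attach to a gelatin-coated dish, and the floating cells were then sorted for Gfra1. The parts of testis somatic cells and of germ cells in the SSC levels of Gata6, Sox17, T and Eomes were not tested.

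The 12 fibroblast or feeder genes, led by Fn1, summed to 154, 196 and 246 FPKM in SSCiPSC and to 188, 157 and 192 FPKM in fiPSC replicates 1, 2 and 3, with the groups overlapping, and 0 of 10 tested genes were called between them. Col3a1, a fibroblast collagen of that list, was 9.20, 6.61 and 11.6 FPKM in SSCiPSC and 10.2, 2.93 and 14.1 FPKM in fiPSC, lowest in fiPSC replicate 2. The part of feeder cells in the iPSC levels of the 10 genes was not tested.

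**Figure D5:**
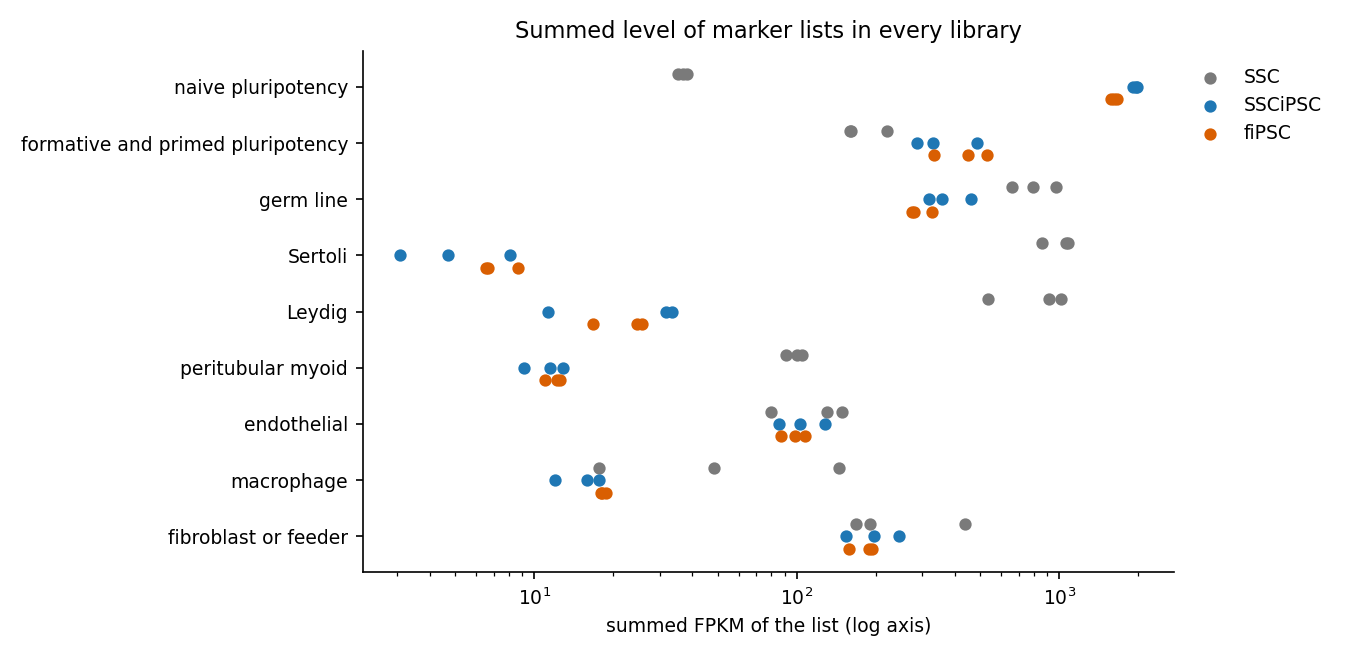
Summed FPKM (horizontal axis, log scale) of the marker genes of 9 lists (rows) in each of the 3 SSC, 3 SSCiPSC and 3 fiPSC libraries (points). The Sertoli list lies between 859 and 1074 FPKM in SSC and at no more than 8.64 FPKM in iPSC, whereas the feeder list overlaps between SSCiPSC and fiPSC.

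Finally, the genes most like the members in their pattern were sought among 10992 genes, by the Euclidean distance of log2(FPKM + 1) values, each centred on its mean, over the 9 libraries. Nearest to Otx2 were Liph (distance 0.439) and Dtx3l (0.699), with Liph at 25.1, 22.4 and 15.4 FPKM in SSCiPSC and 32.6, 25.1 and 36.5 FPKM in fiPSC replicates 1, 2 and 3. Nearest to Eomes were Fam110b (0.266) and Cdc25b (0.342), nearest to T were Ube4a (0.406) and Arf3 (0.421), and nearest to Gata6 were the collagen gene Col5a1 (0.480) and Cavin2 (0.544). Col5a1 was 22.9, 16.9 and 21.6 FPKM in SSC replicates 1, 2 and 3 and between 1.602 and 3.48 FPKM in iPSC.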

How the data were processed

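The authors trimmed reads with Trimmomatic 0.32, aligned them with TopHat2 2.0.9 and Bowtie2 2.1.0 and quantified loci with Cufflinks 2.2.1 and Cuffdiff, per the labels' processing notes, and deposited FPKM values for 54914 loci in 9 libraries. The notes name mm9, but 92.8% of stranded loci lay on a same-strand coding gene of GRCm38 (GENCODE M21), against 38.3% and 37.9% after a shift of 1000000 bp up or down. The methods name a stranded mRNA kit and the labels also a depletion of ribosomal RNA.

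One locus with a blank value was left out. Strand was read from the order of the table, in which 70.2% of loci have none. A locus was named for a gene when at least 50% of it lay within the gene on a compatible strand and touched an exon. List genes were taken from their stranded locus where there was one. Differences were tested with limma 3.58.1 in R 4.3.3 (lmFit, eBayes with a trend), since FPKM are not counts. The fit was tested on simulated data, where the share of false calls lay above the threshold of 0.05 in both comparisons with SSC and below it between fiPSC and SSCiPSC. Fragment totals came from FPKM steps of strandless loci of 600 to 6000 bp, with a tolerance of 0.1 fragments. Tables and plots used Python 3.11.15, numpy 2.4.6, pandas 2.3.3, scipy 1.17.1 and matplotlib 3.10.9. Sequences are from RefSeq, and the promoter windows of Otx2 and Fgf5 are shown.

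The named genes are the 10 members and, per list, those called between fiPSC and SSCiPSC, the 4 most abundant and the 3 largest differences at an unadjusted p below 0.05. Sall2, Klf5 and Prdm14 were named beside them after their values were seen. The members and lists were chosen with earlier results of these data known. Alternatives were a pseudocount of 0.1, no filter, median-ratio scaling, quantile normalization, a fit of the 3 groups together, a block on the replicate number, leaving out each library in turn, the sum of a gene's loci and an overlap of 80%. The locus on the strand of the gene was added after seeing the data.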

Additional observations from a re-analysis of the deposited data

How the results depend on the processing

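Between fiPSC and SSCiPSC the 23 called loci became 11 with all 9 libraries in the fit, 6 with the replicate number as a block, and between 2 (without SSCiPSC replicate 3) and 10 with single libraries left out, and none of these fits called Otx2 or Eomes. The replicate numbers did not pair the libraries, since deviations of same-numbered fiPSC and SSCiPSC libraries correlated at -0.049, -0.236 and -0.080. Against SSC, leaving out single libraries gave 11357 to 13901 calls for SSCiPSC and 11300 to 16585 for fiPSC, and more loci were lower than higher once any iPSC library was missing (4761 higher and 6596 lower without SSCiPSC replicate 3, 4757 and 6543 without fiPSC replicate 1), whereas higher loci prevailed more than with all libraries once any SSC library was missing (9012 and 4101 for SSCiPSC, 10495 and 5016 for fiPSC, without SSC replicate 1). The filter of 3 or more libraries was kept in these fits. Loci that reached 1 FPKM only in the group with 2 libraries left therefore had no test. The shift between higher and lower calls thus depends on the filter and is not read as a result. With 2 iPSC libraries, Otx2 no longer passed the filter against SSC, nor did Gata6 in either comparison and T in fiPSC against SSC with 2 SSC libraries. The block left Eomes uncalled in SSCiPSC against SSC (limma's adjusted p = 0.0713), as quantile normalization did T (0.0689), and Eomes passed in fiPSC against SSC with median-ratio scaling (0.0422), quantile normalization (0.0380) and all 9 libraries (0.0396). Without the filter, Fgf5 passed in fiPSC against SSC (limma's adjusted p = 0.0440). Every called difference of Otx2, T, Eomes and Gata6 kept its direction, as did the differences of Otx2, Fgf5, Eomes and Gata6 between fiPSC and SSCiPSC, in all settings run. Untested differences turned sign for T, Mixl1, Sox17 and Pax6 between fiPSC and SSCiPSC and for Foxa2, Mixl1 and Pax6 against SSC, in 1 or more settings.

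Signs turned for 7 of the uncalled genes named from the 6 lists of embryonic states between fiPSC and SSCiPSC. With median-ratio scaling Plet1 was -0.0017 and Msi1 -0.028. With single libraries left out, Etv4 ranged from -0.50 to 0.0597, Sox4 from -0.26 to 0.12, Tfap2c from -0.062 to 0.12, Plet1 from -0.26 to 0.53, Tubb3 from -0.54 to 0.036, Pdgfra, under the filter, from -0.20 to 0.10 and Msi1 from -0.13 to 0.12. The causes were not tested. An overlap of 80% left no locus for T (79.8%) and Pax6, and left Sox17 (77.2%) with a strandless locus of 621 bp, listed at 0 in all iPSC libraries. Depth limits Fgf5, Mixl1, Foxa2, Cdx2 and Sox17 in all libraries, and all low genes in SSC.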

Other observations

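Within the iPSC groups, Fgf5, Dnmt3b and Grhl2 had the same library on top in SSCiPSC and the same library at the bottom in fiPSC, a likeness seen after the values and not tested. SSCiPSC replicate 2 was highest of its group for Fgf5 (0.328 FPKM), Dnmt3b (84.9 FPKM) and Grhl2 (9.0 FPKM), and also for T (1.04 FPKM). In fiPSC, replicate 2 was lowest for Fgf5 (0.384 FPKM), Dnmt3b (49.8 FPKM), Grhl2 (7.11 FPKM) and T (0 FPKM), and lowest for Otx2 (24.6 FPKM). In SSCiPSC, Otx2 was highest in replicate 1 (24.5 FPKM).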
